A study of Homo sapiens with 12 samples.

Results

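The F-box genes were followed by symbol: every protein-coding gene listed for both cell lines whose name begins with FBXL, FBXO or FBXW and a number. This gave 60 genes out of 26485 listed in both tables, of which 15345 were protein-coding. The FBXL class held 16 genes, the FBXO class 35 and the FBXW class 9. One further F-box gene, FBXO40, was listed for SCC25 alone, with 0, 0 and 0 reads in the ACGs libraries and 2, 4 and 2 reads in the DMSO libraries.

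The study measured messenger RNA in SCC15 and SCC25, established human cell lines grown from oral squamous cell carcinoma, both of wild type genotype. Cells of each line were treated for 24 h with ACGs (annonaceous acetogenins, of which the study's methods name squamocin) or with DMSO, the solvent control. There were 3 libraries in each of the 4 groups and 12 libraries in all. Each cell line stands for a single tumor, so a difference between the lines is a difference between these 2 lines. No label says that the 3 libraries of a group came from separate cultures, so the p-values measure the spread between these samples, which may be technical.

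An F-box protein is the exchangeable part of an SCF ubiquitin ligase. SCF ligases are built from the scaffold CUL1, the adaptor SKP1 and the RING protein RBX1. The F-box motif docks on SKP1, and the rest of the protein captures a substrate, which is then ubiquitinated and in many cases degraded by the proteasome. The class letter names the substrate-binding part: leucine-rich repeats in FBXL proteins, WD40 repeats in FBXW proteins, and other or no known domains in FBXO proteins.

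The values are normalized counts, that is reads per gene divided by 1 size factor per library. A group difference is given as log2 fold change, ACGs over DMSO, on log2(normalized count + 1), with its standard error. It was tested with limma across all genes with a mean of at least 10 and called at a Benjamini-Hochberg adjusted p under 0.05. The libraries held 16665563 to 22748845 recovered reads. Replicate 3 of the SCC15 ACGs group stood apart from its group. Its counts differed from those of the other two by a chi-square of 63.6 and 71.6 per degree of freedom, against 1.72 to 11.0 in the other 10 pairs of replicates.

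The squamous epithelial markers KRT17, KRT14, KRT6A and CDH1 had DMSO means of at least 134 normalized counts in SCC15, but KRT5, TP63 and EPCAM were low there, with means of at most 17.5. In SCC25 all 7 had DMSO means of 97.8 or more. The summed squamous level was higher in the ACGs libraries, 205500 to 356600 against 110700 to 116800 in SCC15, where KRT17 with a DMSO mean of 112300 made up nearly all of it, and 39500 to 41640 against 24740 to 24880 in SCC25. Of its members, KRT17 and KRT14 rose in SCC15 and the other 4 tested had log2 fold changes from -0.72 to -0.10, while in SCC25 5 rose and CDH1 (-0.46) and KRT5 (-0.25) fell. Of the leukocyte markers, PTPRC had a DMSO mean of 3.05 and LYZ was not listed in SCC15, and in SCC25 PTPRC was not listed and LYZ had 0.59, but CD14 had 504.4 and 351.3. CD14 was at 378.6 with ACGs in SCC15 and at 4.81 in SCC25, and the summed leukocyte level fell with it there, from 331.1 to 420.1 down to 19.1 to 31.1. The summed endothelial level (PECAM1, CDH5 and VWF) was 157.8 to 177.9 with DMSO and 66.1 to 77.1 with ACGs in SCC15, and 231.3 to 294.1 and 19.8 to 36.6 in SCC25. The summed fibroblast level (COL1A1, COL1A2, COL3A1, DCN and LUM) went from 707.6 to 783.9 down to 479 to 483.4 in SCC15 and from 580.3 to 613.5 up to 899.9 to 1060 in SCC25. The part of these markers in the results was not tested.

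Promoter sequences were taken from RefSeq (GRCh38.p14), which matched 46 of the 60 genes with 65 windows, each running from 250 bases before to 50 bases after an annotated start. FBXO2 and FBXO44 are shown first because the adjacent genes are read in opposite directions from starts 22 bases apart. Their windows share 77 bases, given in capitals on both strands, at chr1:11654380-11654679 (minus strand) and chr1:11654157-11654456 (plus strand).
FBXO2: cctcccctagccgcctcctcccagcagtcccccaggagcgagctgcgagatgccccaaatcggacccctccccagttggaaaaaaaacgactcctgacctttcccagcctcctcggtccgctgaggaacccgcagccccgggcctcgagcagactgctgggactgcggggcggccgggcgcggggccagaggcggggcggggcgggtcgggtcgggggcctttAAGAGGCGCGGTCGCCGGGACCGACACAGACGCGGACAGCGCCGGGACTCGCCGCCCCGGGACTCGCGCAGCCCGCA
FBXO44: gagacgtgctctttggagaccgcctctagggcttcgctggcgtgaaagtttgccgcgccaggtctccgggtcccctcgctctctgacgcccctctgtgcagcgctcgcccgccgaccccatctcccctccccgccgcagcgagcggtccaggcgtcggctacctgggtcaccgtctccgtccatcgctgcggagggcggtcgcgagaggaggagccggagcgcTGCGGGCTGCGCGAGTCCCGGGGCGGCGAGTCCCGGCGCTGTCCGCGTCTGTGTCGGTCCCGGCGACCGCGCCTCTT
Both genes code for F-box proteins with an FBA domain, the domain through which FBXO2 binds sugar chains of glycoproteins, and their responses are given together with those of the other FBA members.

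A second set shows what motif letters were found in the windows of members that moved the same way in both lines. The 8 letters of the cyclic AMP response element, TGACGTCA, stood in the windows of FBXL20 (chr17:39402507-39402806, minus strand) and FBXO34 (chr14:55271171-55271470, plus strand), which were lower after ACGs in both lines. They begin 120 and 72 bases before the annotated start and are in capitals.
FBXL20: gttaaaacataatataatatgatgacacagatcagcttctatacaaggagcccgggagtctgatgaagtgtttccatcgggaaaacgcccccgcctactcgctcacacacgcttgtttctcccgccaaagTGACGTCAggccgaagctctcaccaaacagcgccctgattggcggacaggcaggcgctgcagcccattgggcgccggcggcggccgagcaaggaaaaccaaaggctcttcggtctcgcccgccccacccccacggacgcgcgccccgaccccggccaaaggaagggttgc
FBXO34: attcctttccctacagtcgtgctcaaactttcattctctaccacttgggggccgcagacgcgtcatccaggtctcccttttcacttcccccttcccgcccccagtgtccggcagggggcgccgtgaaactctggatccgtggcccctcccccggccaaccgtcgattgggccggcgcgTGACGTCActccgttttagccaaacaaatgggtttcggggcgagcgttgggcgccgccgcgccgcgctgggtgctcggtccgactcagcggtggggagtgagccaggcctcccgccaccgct
The CCAAT letters stood 111 bases before the start of FBXW5 (chr9:136944689-136944988, minus strand), and the E-box CACGTG 120 bases before that of FBXL5 (chr4:15655308-15655607, minus strand), both genes that were higher in both lines under the deposited scaling. The capitals mark these letters.
FBXW5: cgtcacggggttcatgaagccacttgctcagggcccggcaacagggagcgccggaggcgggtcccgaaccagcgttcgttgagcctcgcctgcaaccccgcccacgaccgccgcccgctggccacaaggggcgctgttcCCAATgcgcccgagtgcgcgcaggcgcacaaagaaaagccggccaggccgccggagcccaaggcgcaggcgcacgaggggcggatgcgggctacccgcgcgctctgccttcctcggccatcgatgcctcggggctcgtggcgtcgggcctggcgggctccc
FBXL5: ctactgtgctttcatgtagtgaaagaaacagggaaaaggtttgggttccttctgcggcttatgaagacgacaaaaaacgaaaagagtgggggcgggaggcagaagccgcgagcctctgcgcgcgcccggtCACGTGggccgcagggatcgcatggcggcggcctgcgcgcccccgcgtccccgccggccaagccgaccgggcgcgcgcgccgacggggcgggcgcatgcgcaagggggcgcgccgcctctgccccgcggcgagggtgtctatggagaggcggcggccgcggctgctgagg
Searched on both strands, TGACGTCA was in the windows of 2 of 46 matched members (4.35%) and of 2.25% of all 27305 genes with a window. CCAAT was in 18 of 46 members (39.1%) against 39.7% of all genes, and CACGTG in 5 of 46 (10.9%) against 8.77%. The composite letters TGATGCAA, bound by ATF4 with C/EBP factors, were in none of the 46 members and in 1.08% of all genes. The endoplasmic reticulum stress element, CCAAT and CCACG with 9 bases between them, was in none of the members and in 0.0916% of all genes; its first 5 letters are also counted as CCAAT. Among members with a window, CCAAT stood in 4 of 9 higher in both lines and in 4 of 10 lower in both lines. CACGTG stood in 1 of these 9 and 2 of these 10, and TGACGTCA in 0 of 9 and 2 of 10. For the share of G and C, each gene was given the value of its richest window. The median of these values was 68.7% over the members and 59.7% over all genes with a window. All genes with a window were not limited to protein-coding genes, as the members are.

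In control cells the family spanned a wide range of levels. These are bulk libraries, in which fewer cells of a kind and less RNA per cell cannot be told apart. Levels between genes are compared as RPKM (counted reads divided by exon length in kilobases and by library total), computed from the recovered reads and exon lengths of the GENCODE annotation, as mean ± SD of 3 DMSO libraries. FBXO2 had the highest level in SCC15, 181 ± 4.9 RPKM, and FBXW5 came second at 51.9 ± 3 RPKM. In SCC25, FBXW5 stood first at 48.1 ± 1.2 RPKM and FBXO2 second at 21 ± 1.1 RPKM. FBXW11, the second β-TrCP protein, and FBXO7, a subunit with roles in mitophagy, were among the 6 highest in both lines. FBXW11 had 19 ± 0.85 and 15.3 ± 0.74 RPKM and FBXO7 had 17.7 ± 0.51 and 13.3 ± 0.096 RPKM in SCC15 and SCC25. The order of the 60 genes was similar in the 2 lines, with a Spearman correlation of 0.781 across genes, which are not independent replicates and share their libraries. FBXO32 changed rank the most between the lines, at 0.279 ± 0.027 RPKM (51st of 60) in SCC15 and 15.6 ± 0.33 RPKM (3rd) in SCC25.

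After 24 h with ACGs, F-box genes moved in both directions in both lines. In SCC15, 54 of the 60 genes were tested, and 17 were higher and 24 lower in the ACGs libraries. Of all 15902 genes tested in SCC15, 30.9% were higher and 30.0% lower (61.0% called either way). In SCC25, 19 of 55 tested members were higher and 21 lower, where 38.3% and 38.5% of all 16539 genes tested were called (76.8% together). The members' shares were thus 31.5% higher and 44.4% lower in SCC15, and 34.5% and 38.2% in SCC25. Without replicate 3 of the SCC15 ACGs group, 22 members were higher and 25 lower in SCC15. How many of all genes were called without that library is not given here, so these counts have no share to stand beside. The median log2 fold change of the tested members was -0.05 in SCC15 and 0.04 in SCC25, beside 0.01 and -0.01 over all genes tested.

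The balance of higher and lower calls depended on how the libraries were scaled. With every library scaled to the same total in place of the deposited size factors, SCC15 had 8 members higher and 29 lower, and SCC25 had 13 higher and 27 lower. The same scaling gave 14.8% higher and 50.5% lower over all genes in SCC15, and 30.4% and 47.4% in SCC25. It moved the median of all genes by -0.50 in SCC15 and -0.21 in SCC25 on the log2 scale, and TMM scaling by -0.07 and -0.02. Values below follow the deposited scaling. With equal totals the sign turned from positive to negative for FBXL2, FBXL5, FBXL6, FBXL12, FBXO3, FBXO5, FBXO11, FBXO16, FBXO17, FBXO36 and FBXW9 in SCC15, and for FBXL6, FBXL17, FBXO6, FBXO11, FBXO17, FBXO22, FBXW2, FBXW4, FBXW5 and FBXW11 in SCC25.

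The ACGs and DMSO libraries did not overlap for 47 of 54 members in SCC15, 21 with all ACGs libraries above and 26 with all below (87% of members, 70.6% of all genes). In SCC25 the treatments did not overlap for 38 of 55 members, 18 above and 20 below (69.1% of members, 79.0% of all genes).

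**Figure D1:**
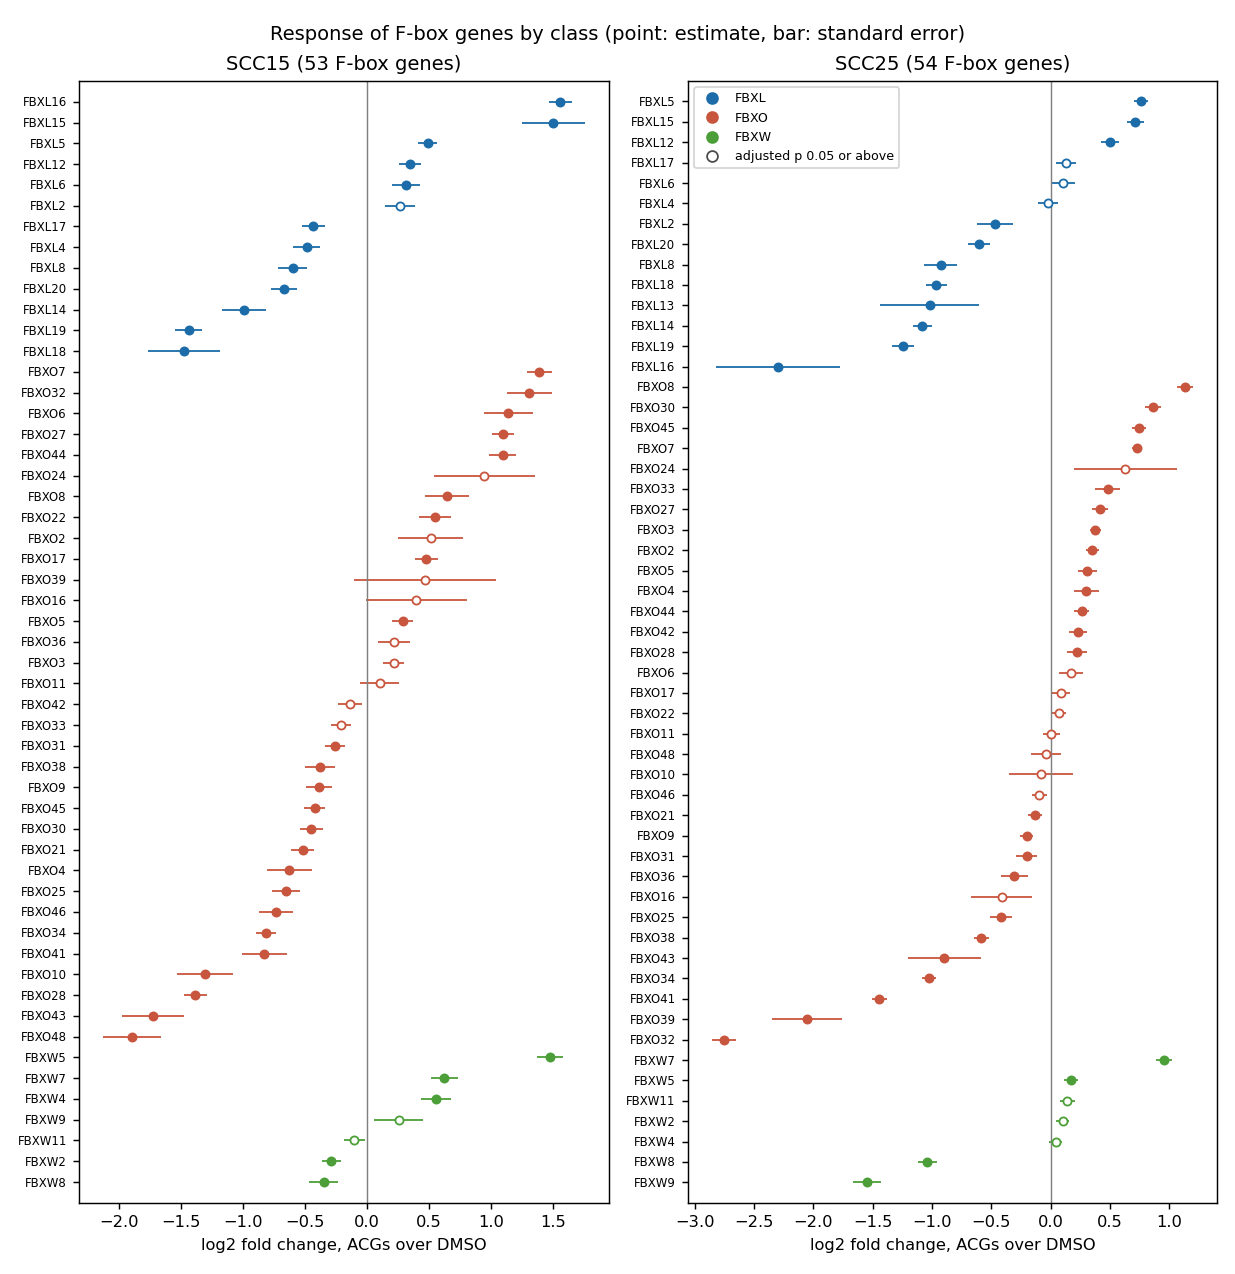
Log2 fold change (ACGs over DMSO, x axis) of tested F-box genes (y axis), by class, in SCC15 (53 genes) and SCC25 (54 genes). Points are limma estimates from 3 libraries against 3, bars are standard errors, and open points have an adjusted p of 0.05 or above; estimates run from -1.90 to 1.56 in SCC15 and from -2.75 to 1.13 in SCC25.

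The calls of the 3 classes are small numbers. Of all genes tested, 30.9% were higher and 30.0% lower in SCC15, and 38.3% and 38.5% in SCC25. In SCC15 the class shares were 35.7% higher and 50% lower for FBXL, 27.3% and 45.5% for FBXO, and 42.9% and 28.6% for FBXW. In SCC25 they were 26.7% and 53.3%, 39.4% and 33.3%, and 28.6% and 28.6%. Of the FBXL genes, 5 of 14 tested rose and 7 fell in SCC15, while 4 of 15 rose and 8 fell in SCC25, with median log2 fold changes of -0.22 and -0.47. Of the FBXO genes, 9 of 33 rose and 15 fell in SCC15 (median -0.14), while 13 of 33 rose and 11 fell in SCC25 (median 0.07). Of the FBXW genes, 3 of 7 rose and 2 fell in SCC15 (median 0.25), while 2 of 7 rose and 2 fell in SCC25 (median 0.10). With equal totals the class medians were -0.71, -0.64 and -0.24 in SCC15 and -0.67, -0.14 and -0.11 in SCC25 for FBXL, FBXO and FBXW. The FBXL median was the lowest and the FBXW median the highest of the 3 in both lines and under both scalings. The sign of the FBXW median, and of the FBXO median in SCC25, turned between the scalings. In SCC25 the FBXO and FBXW medians were close, and their order depended on the filter. With only genes with a mean of at least 50 kept, the FBXO median there was 0.13, above the 0.10 of FBXW. No test of the classes was made, and with all genes above 0 kept, the FBXW median of SCC15 was -0.10. The FBXL median of SCC25 was -0.02 when only genes with a mean of at least 50 were kept, which leaves out FBXL13 and FBXL16. Without ACGs replicate 3 of SCC15 the FBXW median there was 0.03, and the 2 lower FBXW calls, FBXW2 and FBXW8, were both lost without DMSO replicate 1 or DMSO replicate 3 of SCC15. The counts also moved by over 1.5 times elsewhere, in fits for which the calls over all genes are not given here. Only 3 FBXL genes rose in SCC15 without DMSO replicate 3, 7 FBXO genes fell in SCC25 without DMSO replicate 1 and 7 without DMSO replicate 3, and 4 FBXW genes rose in SCC25 without ACGs replicate 3 and 1 without DMSO replicate 2.

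**Figure D2:**
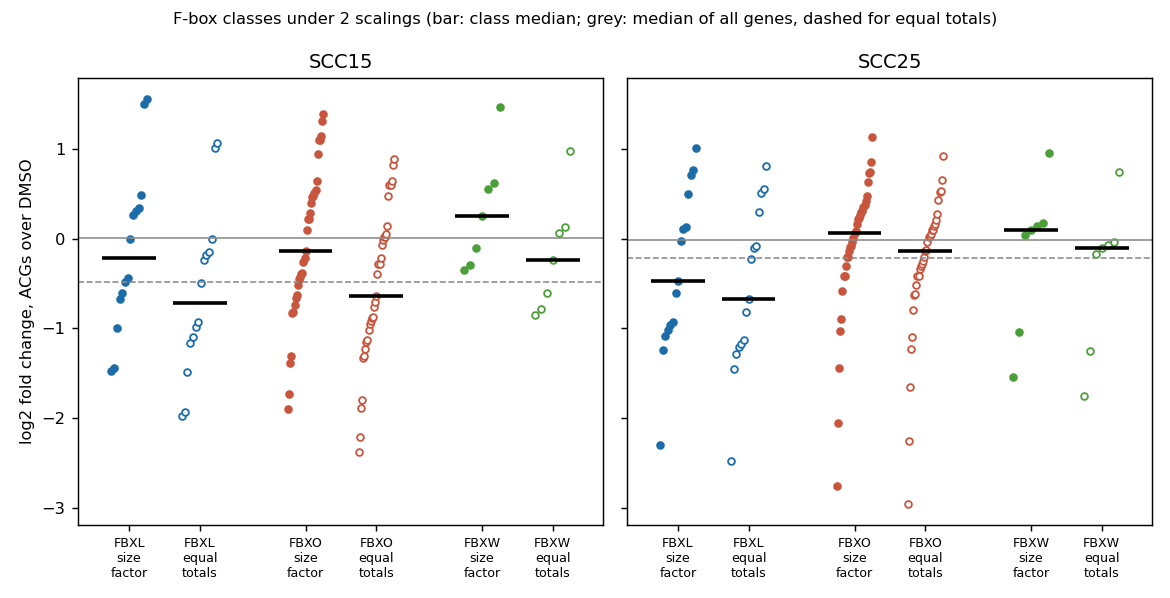
Log2 fold change (y axis) of every tested F-box gene by class (x axis), with the deposited size factors (filled) and with every library scaled to the same total (open), in SCC15 and SCC25. Black bars are class medians and grey lines the median of all genes tested (dashed for equal totals); FBXL medians were -0.22 and -0.47 and FBXW medians 0.25 and 0.10 with size factors.

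Among the FBXW genes, FBXW7 (ENSG00000109670, chr4:152320544-152536063, minus strand) was higher in both lines. FBXW7 is the SCF subunit that recognizes phosphorylated MYC, cyclin E, JUN and NOTCH1. Its normalized counts in SCC15 were 285, 309 and 281 with DMSO and 485, 463 and 404 with ACGs. In SCC25 they were 652, 608 and 562 with DMSO and 1150, 1125 and 1250 with ACGs. Every ACGs library lay above every DMSO library of its line. The log2 fold change was 0.62 ± 0.11 (SE; limma adjusted p = 0.00196) in SCC15 and 0.95 ± 0.068 (adjusted p = 5.09e-08) in SCC25. With equal totals the SCC15 value was 0.13 (adjusted p = 0.483) and the SCC25 value 0.74 (adjusted p = 6.71e-07).

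FBXW5, a substrate receptor that also works with CUL4, had the largest rise of its class in SCC15. Its counts there were 2825, 2549 and 2577 with DMSO and 6831, 6985 and 8313 with ACGs, a 2.77-fold rise (log2 1.47 ± 0.11, adjusted p = 4.79e-05). In SCC25 they were 2912, 2816 and 2956 and 3204, 3018 and 3599, a 1.13-fold rise (adjusted p = 0.0167) that turned to a log2 of -0.03 with equal totals and had an adjusted p of 0.0716 without DMSO replicate 2. The response was larger in SCC15 by 1.30 on the log2 scale (95% interval 1.02 to 1.57, adjusted p = 3.79e-06).

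FBXW8, which works with CUL7, was lower in both lines. Its counts fell from 489, 489 and 476 to 239, 250 and 219 in SCC25 (log2 -1.04 ± 0.08, adjusted p = 1.01e-07). In SCC15 they were 411, 353 and 416 with DMSO and 322, 327 and 275 with ACGs (log2 -0.35 ± 0.12, adjusted p = 0.0338). This SCC15 call was lost without DMSO replicate 1 (adjusted p = 0.119) and without DMSO replicate 3 (0.127).

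FBXW9 fell in SCC25 from 260, 253 and 260 to 100, 79.0 and 84.4 (log2 -1.55 ± 0.12, adjusted p = 1.10e-07). In SCC15 its counts were 205, 199 and 187 with DMSO and 188, 215 and 320 with ACGs, where ACGs replicate 3 was the high library (log2 0.25, adjusted p = 0.29; -0.24 with equal totals). The 2 responses differed by 1.80 (95% interval 1.29 to 2.31, adjusted p = 4.45e-05).

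FBXW2 was lower in SCC15, at 1949, 2011 and 1980 with DMSO and 1588, 1695 and 1573 with ACGs (log2 -0.29 ± 0.077, adjusted p = 0.0132), and the call was lost without any one of the 3 SCC15 DMSO libraries (adjusted p 0.051 to 0.0635). Its SCC25 counts were 1991, 2004 and 1974 and 2246, 2196 and 1969, with overlapping treatments (log2 0.10, adjusted p = 0.102; -0.11 with equal totals). FBXW4 rose in SCC15 by 0.56 (adjusted p = 0.00577) and had 0.04 in SCC25 (adjusted p = 0.541). With equal totals its SCC15 call was lost (0.06, 0.571) and its SCC25 value was lower (-0.17, 0.0201). FBXW11, which recognizes phosphorylated β-catenin and IκBα, passed the test in neither line (-0.10 and 0.14, adjusted p = 0.307 and 0.0617). It passed in SCC25 without ACGs replicate 3 (4.97e-04) or DMSO replicate 1 (0.0418), and in SCC15 as lower with equal totals (-0.60, 0.0033). FBXW10 and FBXW12 were below the filter on low values in both lines.

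Of the FBXL genes, FBXL5 and FBXL12 rose in both lines under the deposited scaling. FBXL5 is the iron sensor of its ligase, which targets the iron regulatory protein IREB2. Its counts were 1367, 1436 and 1422 with DMSO and 1961, 1921 and 2053 with ACGs in SCC15. The SCC25 counts were 475, 501 and 509 and 859, 841 and 819, again with no overlap. The log2 fold change was 0.49 ± 0.077 (adjusted p = 0.00131) in SCC15, where it was -0.01 with equal totals, and 0.76 ± 0.06 (adjusted p = 1.32e-07) in SCC25. FBXL12 had 0.35 and 0.50 (adjusted p = 0.0116 and 5.24e-05). Its SCC15 value was -0.15 with equal totals, and its call there was lost without DMSO replicate 3 (adjusted p = 0.0572).

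FBXL15 had one of the largest rises of the class in SCC15, from 186, 191 and 175 to 388, 453 and 811. Replicate 3 of the ACGs group was by far the highest of the 3, and all 3 lay above the DMSO libraries. In SCC25 the counts went from 330, 339 and 337 to 569, 535 and 548. The log2 fold changes were 1.5 ± 0.25 (adjusted p = 0.0018) and 0.71 ± 0.068 (adjusted p = 7.94e-07).

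FBXL19, FBXL18 and FBXL14 had the largest falls of the class in SCC15, and all 3 fell in SCC25 as well. FBXL19, which binds unmethylated CpG DNA through a zinc finger, went from 539, 536 and 526 to 216, 201 and 174 in SCC15. In SCC25 it went from 1271, 1217 and 1212 to 530, 437 and 605. Its log2 fold changes were -1.44 ± 0.11 (adjusted p = 5.95e-05) and -1.25 ± 0.095 (adjusted p = 9.60e-08), and their difference was -0.19 (95% interval -0.54 to 0.15, adjusted p = 0.327).

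FBXL18 went from 535, 516 and 515 to 219, 266 and 112 in SCC15, with ACGs replicate 3 the lowest, and from 642, 665 and 654 to 320, 303 and 387 in SCC25. This gave -1.48 ± 0.29 (adjusted p = 0.00351) and -0.96 ± 0.089 (adjusted p = 6.03e-07). A noncoding gene on the other strand of FBXL18, AC092171.2, had mean counts of 314.2 and 450.6 and log2 fold changes of -1.51 and -0.33.

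FBXL14, a receptor for the epithelial-mesenchymal transition factor SNAI1, went from 340, 295 and 309 to 189, 172 and 119 in SCC15 and from 489, 481 and 481 to 215, 242 and 228 in SCC25. The log2 fold changes were -0.99 ± 0.18 (adjusted p = 0.00249) and -1.08 ± 0.079 (adjusted p = 6.06e-08). FBXL8 and FBXL20 were also lower in both lines, FBXL8 with log2 fold changes of -0.60 in SCC15 and -0.93 in SCC25, and FBXL20 with -0.67 and -0.61. FBXL8 overlaps TRADD on the other strand by 368 bases, and TRADD had mean counts of 1217 and 545.4 beside 239.6 and 111.5 for FBXL8.

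Of the FBXO genes, FBXO7 and FBXO8 had the largest rise that passed the test in SCC15 and in SCC25. FBXO7 (chr22:32474676-32498829, plus strand) is the gene of an early-onset parkinsonism, and its protein takes part in mitophagy. Its counts were 2369, 2400 and 2261 with DMSO and 6610, 6380 and 5492 with ACGs in SCC15. In SCC25 they were 2096, 2074 and 2056 and 3439, 3329 and 3539. The rises were 2.62-fold (log2 1.39 ± 0.098, adjusted p = 4.43e-05) and 1.65-fold (log2 0.73 ± 0.042, adjusted p = 6.85e-09). With equal totals they were 0.89 and 0.52 on the log2 scale.

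FBXO8 (ENSG00000164117, chr4:174236658-174284264, minus strand) carries a Sec7 domain beside its F-box. In SCC25 its counts went from 346, 327 and 367 to 782, 736 and 763, the largest rise of any member there (2.19-fold, log2 1.13 ± 0.069, adjusted p = 1.12e-08). In SCC15 they went from 178, 211 and 198 to 253, 284 and 397, with no overlap and with ACGs replicate 3 the highest (log2 0.64 ± 0.18, adjusted p = 0.0161). The SCC15 call was lost with equal totals (log2 0.15, adjusted p = 0.367) and without DMSO replicate 1 (adjusted p = 0.0641). FBXO8 overlaps CEP44 on the other strand by 588 bases, and CEP44 had log2 fold changes of 0.46 and 0.74.

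The 5 members with an FBA domain are FBXO2, FBXO6, FBXO17, FBXO27 and FBXO44. They were taken by symbol, so F-box genes with other symbols, NCCRP1 among them, are not counted here and are given below. FBXO2 and FBXO6 recognize sugar chains of glycoproteins and serve in the disposal of misfolded proteins exported from the endoplasmic reticulum. FBXO2, FBXO44 and FBXO6 lie side by side on chromosome 1, and FBXO17 and FBXO27 on chromosome 19. In SCC15, 4 of the 5 were higher, beside 30.9% of all genes, and in SCC25 3 of the 5, beside 38.3%. With equal totals, 3 of 5 and 2 of 5 were higher, beside 14.8% and 30.4% of all genes.

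FBXO27 had counts of 295, 327 and 325 with DMSO and 663, 688 and 674 with ACGs in SCC15, and 397, 399 and 392 and 544, 497 and 547 in SCC25. Its log2 fold changes were 1.10 ± 0.089 (adjusted p = 7.84e-05) and 0.42 ± 0.069 (adjusted p = 1.32e-04). All ACGs libraries lay above the DMSO libraries of the same line. FBXO44 had 1091, 1025 and 1027 and 2010, 2171 and 2568 in SCC15 (log2 1.09 ± 0.11, adjusted p = 1.70e-04). In SCC25 it had 446, 431 and 422 and 533, 502 and 522 (log2 0.26 ± 0.066, adjusted p = 0.00328; 0.05 and 0.483 with equal totals).

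FBXO2, read from the other strand of the shared window, had 9140, 8732 and 8703 with DMSO and 9247, 10961 and 19919 with ACGs in SCC15. The last of these, ACGs replicate 3, was far above the others, and the difference did not pass the test (log2 0.51 ± 0.26, adjusted p = 0.123). Without ACGs replicate 3 it was 0.18 and passed (adjusted p = 0.00391), as it did without ACGs replicate 1 (0.74, 0.0369). In SCC25 FBXO2 rose from 1289, 1195 and 1164 to 1509, 1583 and 1559 (log2 0.35 ± 0.053, adjusted p = 5.57e-05). The listed spans of FBXO2 and FBXO44 overlap by 1411 bases on opposite strands, so reads there could belong to either gene where strand was not used in counting.

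FBXO6 rose in SCC15 from 229, 192 and 193 to 370, 402 and 613 (log2 1.14 ± 0.20, adjusted p = 0.00197), with ACGs replicate 3 the highest. Its SCC25 libraries overlapped (log2 0.17, adjusted p = 0.152; -0.04 with equal totals), and passed without DMSO replicate 3 (0.0208). FBXO17 had 0.48 in SCC15 (adjusted p = 0.00353; -0.02 with equal totals) and 0.09 in SCC25 (adjusted p = 0.31; -0.12 with equal totals). The rise was larger in SCC15 than in SCC25 for FBXO6, FBXO17, FBXO27 and FBXO44, by 0.97, 0.39, 0.68 and 0.83 on the log2 scale (adjusted p = 0.00422, 0.011, 1.77e-04 and 9.71e-05). The FBXO17 difference was lost with equal totals (0.10, adjusted p = 0.478). For FBXO2 the difference was 0.16 (95% interval -0.45 to 0.77, adjusted p = 0.652).

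**Figure D3:**
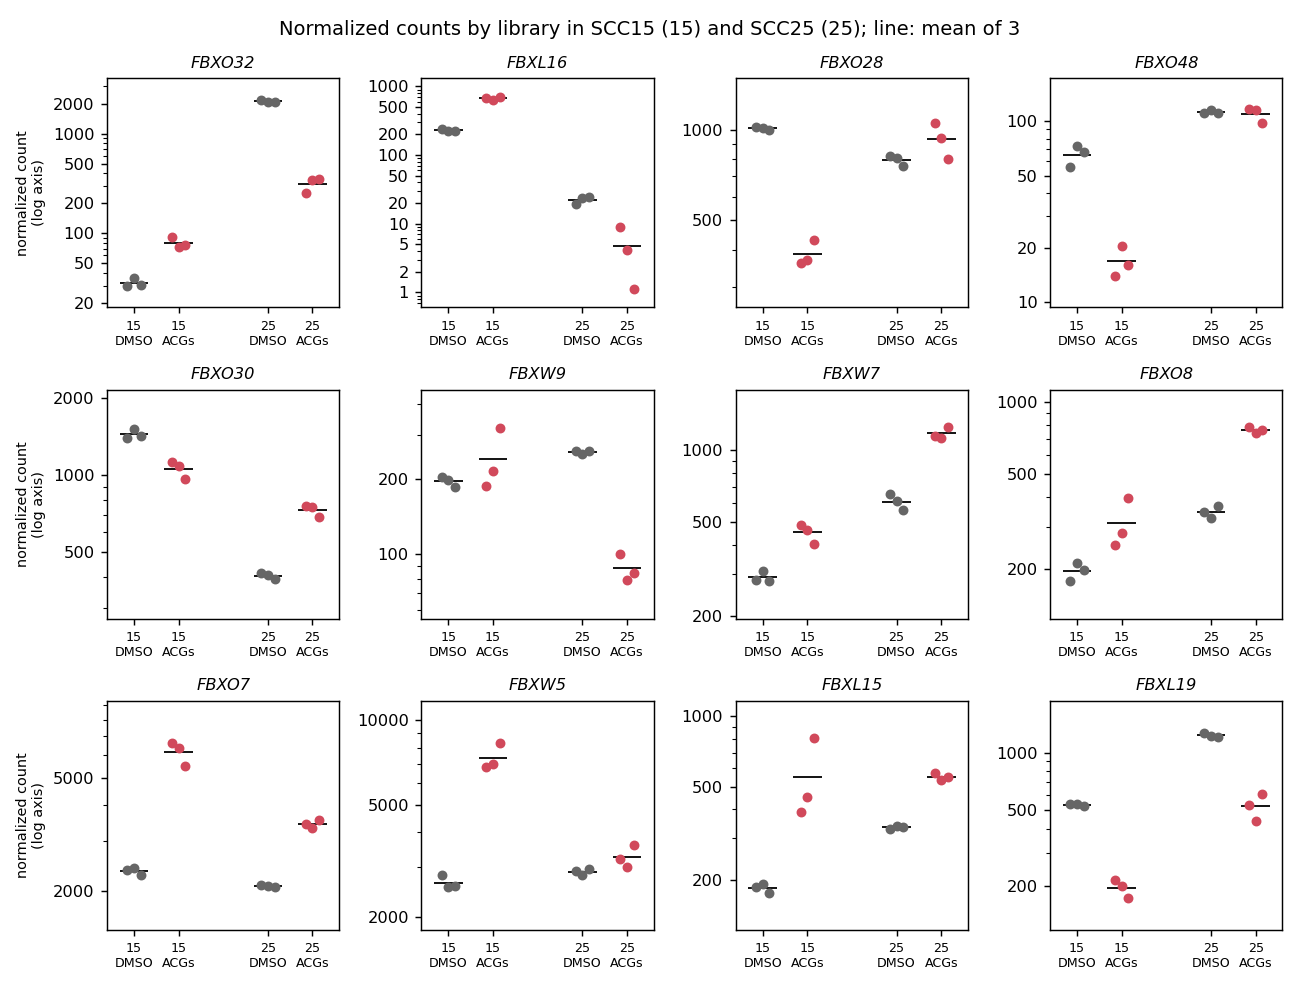
Normalized counts (log y axis) of 12 F-box genes in every library of SCC15 (15) and SCC25 (25) with DMSO (grey) or ACGs (red), with the mean of 3 libraries as a line. The 2 lines were normalized separately, so only treatments within a line are on one scale; FBXO32 and FBXL16 rose in SCC15 and fell in SCC25, and FBXW7, FBXO8 and FBXO7 rose in both.

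Among the FBXO genes that fell, FBXO41 had the largest fall in SCC25 of those lower in both lines. Its counts went from 1205, 1120 and 1078 to 418, 424 and 405 in SCC25 (log2 -1.44 ± 0.063, adjusted p = 4.93e-10). In SCC15 they went from 955, 969 and 979 to 607, 661 and 401, again with ACGs replicate 3 the most distant (log2 -0.83 ± 0.18, adjusted p = 0.00559). FBXO34, whose promoter window is printed above, had -0.82 ± 0.084 (adjusted p = 2.04e-04) and -1.03 ± 0.059 (adjusted p = 6.69e-09).

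FBXO43 (EMI2) and FBXO5 (EMI1) are inhibitors of the anaphase-promoting complex and are each other's closest relatives. FBXO43 went from 95.5, 90.1 and 124 to 22.0, 39.9 and 31.1 in SCC15 (log2 -1.73 ± 0.25, adjusted p = 9.53e-04) and from 41.1, 23.4 and 33.6 to 12.7, 21.8 and 16.7 in SCC25 (log2 -0.90 ± 0.31, adjusted p = 0.0178). The SCC25 call was lost without ACGs replicate 1, DMSO replicate 1 or DMSO replicate 3 (adjusted p = 0.0547, 0.0976 and 0.0597). FBXO5 moved the other way under the deposited scaling, by 0.29 and 0.31 (adjusted p = 0.018 and 0.00279). With equal totals it had -0.21 and 0.10 and passed in neither line, and without any one of ACGs replicate 2 or the 3 DMSO libraries of SCC15 its call there was lost (adjusted p 0.0582 to 0.0826).

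A list of 6 members with a role in the cell cycle held FBXW7, FBXW11, FBXO4, FBXO5, FBXO31 and FBXO43. It is not complete, and leaves out FBXO45, for example. Of these 6, SCC15 had 2 higher and 3 lower, and SCC25 had 3 higher and 2 lower, beside 61.0% and 76.8% of all genes called either way. With equal totals, 4 were lower in SCC15, beside 50.5% of all genes. SCC25 then had 1 higher and 2 lower, beside 30.4% and 47.4% of all genes. The remaining FBXO genes lower in both lines were FBXO9, FBXO21, FBXO25, FBXO31 and FBXO38, whose log2 fold changes lay between -0.66 (FBXO25) and -0.26 (FBXO31) in SCC15 and between -0.59 (FBXO38) and -0.13 (FBXO21) in SCC25. FBXO31 lost its call without 4 of the 6 SCC15 libraries (adjusted p 0.0606 to 0.107) and without 5 of the 6 SCC25 libraries (0.0919 to 0.174) left out one at a time, that is all but ACGs replicates 1 and 3 of SCC15 and all but ACGs replicate 3 of SCC25. FBXO31 overlaps MAP1LC3B on the other strand by 8148 bases, and MAP1LC3B had mean counts of 4387 and 2437 and log2 fold changes of 1.36 and 1.74.

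Across the family, 10 of the 54 genes tested in both lines were higher in both, 14 lower in both, and 6 were called in opposite directions. Over all 14454 genes tested in both lines these classes held 22.1%, 18.6% and 10.1%. The 10 were FBXL5, FBXL12, FBXL15, FBXO5, FBXO7, FBXO8, FBXO27, FBXO44, FBXW5 and FBXW7. The 14 were FBXL8, FBXL14, FBXL18, FBXL19, FBXL20, FBXO9, FBXO21, FBXO25, FBXO31, FBXO34, FBXO38, FBXO41, FBXO43 and FBXW8. With equal totals 3 members were higher in both lines and 16 lower in both. That scaling also lowered the median of all genes, by 0.50 in SCC15 and 0.21 in SCC25. The shares of all genes called in both lines under it are not given here. The log2 fold changes of the 2 lines correlated across the 54 members with a Pearson coefficient of 0.154 and a Spearman coefficient of 0.376, where all genes gave 0.608 and 0.563. The same sign was seen for 68.5% of the members and 69.2% of all genes. These correlations are across genes and carry no test.

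The opposite pair FBXO32 and FBXL16 had the largest differences between the lines. FBXO32 (atrogin-1) is known as a ligase subunit of muscle wasting and as a target of FOXO factors. In SCC15 it rose from 29.9, 35.6 and 30.6 to 92.7, 73.0 and 77.1 (log2 1.31 ± 0.18, adjusted p = 7.64e-04). In SCC25 it fell from 2165, 2094 and 2067 to 255, 341 and 347 (log2 -2.75 ± 0.098, adjusted p = 9.03e-11). The treatments were far apart in both lines, and the responses differed by 4.06 on the log2 scale (95% interval 3.64 to 4.48, adjusted p = 1.72e-08).

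FBXL16 rose in SCC15 from 238, 221 and 224 to 669, 644 and 709 (log2 1.56 ± 0.092, adjusted p = 2.43e-05). In SCC25 it was low, with 19.3, 23.4 and 24.8 in the DMSO libraries and 8.90, 4.16 and 1.11 in the ACGs libraries (log2 -2.30 ± 0.52, adjusted p = 0.00151). The responses differed by 3.86 (95% interval 2.66 to 5.05, adjusted p = 8.47e-05). The SCC25 values rest on few reads, and the noncoding gene Z92544.2, which overlaps FBXL16 by 57 bases on the other strand, had a mean of 10.8 there beside 13.6 for FBXL16.

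FBXO28, FBXO30, FBXO45 and FBXO4 fell in SCC15 and rose in SCC25. FBXO28 had 1019, 1013 and 999 with DMSO and 362, 370 and 429 with ACGs in SCC15 (log2 -1.39 ± 0.096, adjusted p = 4.23e-05). In SCC25 its libraries overlapped, at 820, 806 and 756 and 1052, 938 and 803 (log2 0.22 ± 0.086, adjusted p = 0.0318). That call was lost with equal totals (log2 0.01) and without 5 of the 6 SCC25 libraries left out one at a time, all but ACGs replicate 3 (adjusted p 0.0506 to 0.163). The difference between the lines, -1.61, had a 95% interval of -1.91 to -1.30 (adjusted p = 1.50e-06).

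FBXO30, a second ligase gene known from muscle atrophy, went from 1403, 1518 and 1421 to 1123, 1090 and 968 in SCC15 and from 412, 404 and 390 to 755, 752 and 686 in SCC25. Neither line had overlapping treatments, and the log2 fold changes were -0.45 ± 0.091 (adjusted p = 0.00406) and 0.86 ± 0.067 (adjusted p = 1.13e-07). FBXO45, which acts in synapse formation and mitosis, had -0.42 and 0.74 (adjusted p = 0.00407 and 1.77e-07). FBXO4 had -0.63 and 0.30 (adjusted p = 0.0184 and 0.0238), and lost its SCC15 call without ACGs replicate 2 or any one DMSO library (adjusted p 0.0507 to 0.0672), and its SCC25 call with equal totals (0.444) and without ACGs replicate 1, DMSO replicate 2 or DMSO replicate 3 (0.0557 to 0.115).

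FBXO48 and FBXO39 complete the 4 largest differences. FBXO48 fell in SCC15 from 55.5, 72.7 and 67.2 to 13.9, 20.5 and 16.2 (log2 -1.90 ± 0.23, adjusted p = 4.35e-04). In SCC25 it had 111, 114 and 111 with DMSO and 116, 114 and 97.7 with ACGs (adjusted p = 0.787), and the responses differed by -1.86 (95% interval -2.40 to -1.32, adjusted p = 5.21e-05). FBXO39 fell in SCC25 from 39.5, 36.0 and 42.5 to 11.4, 7.28 and 7.77 (log2 -2.06 ± 0.29, adjusted p = 3.44e-05). Its SCC15 counts were 9.38, 10.3 and 6.11 with DMSO and 8.11, 6.84 and 29.9 with ACGs, where replicate 3 alone was high, and the difference of 2.53 has a wide interval (1.12 to 3.93, adjusted p = 0.0056).

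In total the response differed between the lines for 33 of the 54 members, 17 with a higher value in SCC15 and 16 with a lower one. Over all genes 52.2% differed, 26.1% in the first direction and 26.0% in the second.

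**Figure D4:**
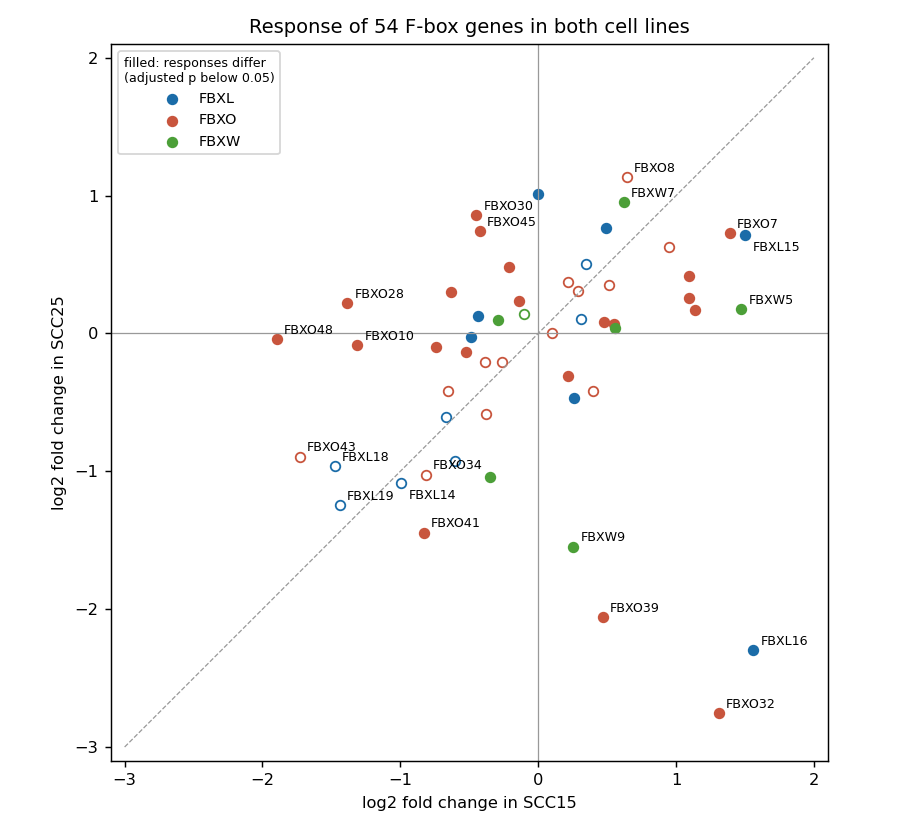
Log2 fold change in SCC15 (x axis) and in SCC25 (y axis) of the 54 F-box genes tested in both lines, colored by class, with filled points where the responses differed at an adjusted p under 0.05 and the dashed line marking equal responses. FBXO32 and FBXL16 lie at the lower right, with differences of 4.06 and 3.86, and FBXO48, FBXO28 and FBXO10 at the left.

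The 30 genes of the SCF core and its NEDD8 cycle (cullins, RING subunits, NEDD8 enzymes, COP9 signalosome, DCN1-like proteins and exchange factors) were followed as a list of partners. In SCC15, 21 of 30 were higher and 5 lower, while 20 of 29 rose and 6 fell in SCC25, beside 30.9% higher and 30.0% lower of all genes in SCC15 and 38.3% and 38.5% in SCC25. With equal totals, SCC15 had 9 of each and SCC25 had 17 higher and 8 lower, beside 14.8% and 50.5% and 30.4% and 47.4% of all genes. CUL1, the scaffold itself, was lower in both lines, with log2 fold changes of -0.79 and -0.56 (adjusted p = 4.4e-04 and 2.9e-07). The adaptor SKP1 rose by 0.66 in SCC15 (adjusted p = 0.0422) and 1.37 in SCC25 (2.9e-10), and its SCC15 call was lost with equal totals (log2 0.16, adjusted p = 0.446). RBX1 rose by 1.09 (0.00466) and 0.90 (1.3e-08). DCUN1D3, a DCN1-like protein of cullin neddylation, had the largest rise of the list in SCC25, 2.15, and rose by 1.14 in SCC15.

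Of 10 F-box genes with other symbols, 9 were tested in each line. In SCC15, 1 rose and 6 fell, and in SCC25 5 fell, beside 30.0% and 38.5% of all genes lower. With equal totals 8 were lower in each line, beside 50.5% and 47.4% of all genes. SKP2, the receptor for p27, had -0.99 in SCC15 (adjusted p = 1.05e-04) and -0.42 in SCC25 (3.1e-04). BTRC, the first β-TrCP protein, had -0.98 and -0.41 (9.04e-05 and 0.00226). CCNF, the F-box cyclin, fell in SCC15 (-1.02, 1.9e-04) and had -0.04 in SCC25 (0.626), where it was lower with equal totals (-0.25, 0.0103). NCCRP1 had the largest fall of the list in SCC25, on low counts, from a mean of 39.9 to 3.97 (-3.49, 2.7e-04). In SCC15 it had 0.05 (0.92).

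Of 13 known substrates of these receptors, SCC15 had 7 higher and 3 lower, and SCC25 had 6 of each, beside 30.9% higher and 30.0% lower of all genes in SCC15 and 38.3% and 38.5% in SCC25. With equal totals the balance in SCC15 was 3 higher and 7 lower, beside 14.8% and 50.5% of all genes. In SCC25 it was 5 higher and 6 lower, beside 30.4% and 47.4%. MYC messenger RNA rose by 0.75 in SCC15 (adjusted p = 5.2e-04), a call lost with equal totals (log2 0.26, adjusted p = 0.119), and fell by 1.87 in SCC25 (2.6e-12). JUN and NFKBIA rose in both lines, JUN by 1.95 and 1.38 and NFKBIA by 2.27 and 2.40. CDC25A fell in both, by 1.48 and 1.26 (adjusted p = 2.7e-05 and 2.3e-05). Substrate proteins were not measured here.

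The members' response was weakly related to gene span. Members with a span of at most 35.1 kb had a median log2 fold change of 0.25 in SCC15 and 0.17 in SCC25, and longer members -0.26 and -0.11. The Spearman correlation with span was -0.18 in SCC15 and -0.149 in SCC25 across members, and -0.211 and -0.0086 across all protein-coding genes. These are descriptions across genes with no test. Of the 60 members, 40 overlap another listed gene, and 23 overlap one whose mean count is at least 0.1 of their own. Whether strand was used in counting is not given in the sources used here, so reads in such overlaps cannot be told apart. FBXO16 overlaps ZNF395 by 54415 bases on the same strand, where strand would not separate the reads.

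Of the members not yet described, FBXL2, FBXL4, FBXL6 and FBXL17 were not called in both lines under the deposited scaling. FBXL4 is a mitochondrial protein, and FBXL17 clears wrongly paired BTB domain proteins. In SCC15 FBXL4 and FBXL17 fell, with log2 fold changes of -0.49 (adjusted p = 0.0067) and -0.43 (0.00586), and in SCC25 they had -0.02 and 0.13 (adjusted p = 0.8 and 0.183), where FBXL17 passed without ACGs replicate 3 (0.0119). With equal totals FBXL4 passed as lower in SCC25 as well (-0.23, 0.0209). FBXL2 fell in SCC25, from 118, 121 and 122 to 71.2, 98.8 and 92.1 (log2 -0.47 ± 0.15, adjusted p = 0.0125). In SCC15 it had 248, 285 and 279 and 332, 358 and 287 (log2 0.26, adjusted p = 0.0942), which passed without ACGs replicate 3 (0.00234). FBXL6 was close to the threshold in SCC15, at 468, 414 and 424 with DMSO and 534, 482 and 613 with ACGs (log2 0.31, adjusted p = 0.048). This call was lost without ACGs replicate 1 or any one DMSO library (adjusted p 0.0708 to 0.153) and by edgeR (0.0718) and DESeq2 (0.05). The SCC25 value was 0.10 (adjusted p = 0.369). SLC52A2 overlaps FBXL6 on the other strand by 3946 bases. In SCC15 it had a mean of 1475 beside 489.5 and a log2 fold change of 0.63. UBP1 overlaps FBXL2 on the other strand by 15327 bases, with means of 1909 and 949.6 beside 298.2 and 103.7. Its log2 fold changes were 0.20 in SCC15 and 1.07 in SCC25.

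Among the FBXO genes, FBXO10 and FBXO46 fell in SCC15 and did not pass in SCC25. FBXO10 went from 105, 75.1 and 84.7 to 29.0, 31.9 and 44.8 in SCC15 (log2 -1.31 ± 0.23, adjusted p = 0.002) and had -0.09 in SCC25 (0.784). FBXO46 went from 444, 421 and 389 to 217, 242 and 299 in SCC15 (log2 -0.74 ± 0.14, adjusted p = 0.00285). In SCC25 it had -0.10 (0.203), which passed without ACGs replicate 3 (0.0152) and with equal totals (-0.30, 0.00125). FBXO22, a receptor for histone demethylases, rose in SCC15 from 1159, 1098 and 1124 to 1432, 1550 and 2017 (log2 0.55 ± 0.13, adjusted p = 0.00894), a call lost with equal totals (0.05, 0.635).

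FBXO3, FBXO33 and FBXO42 rose in SCC25. FBXO3 went from 1075, 1098 and 1068 to 1439, 1365 and 1406 there (log2 0.38 ± 0.049, adjusted p = 1.35e-05). In SCC15 it had 0.21 (0.0574), which passed without ACGs replicates 1 or 3 (0.045 and 0.00392) and was lower with equal totals (-0.28, 0.0416). FBXO33 rose by 0.48 in SCC25 (adjusted p = 0.0011) and had -0.21 in SCC15 (0.061), where it passed as lower by edgeR (0.0203), by DESeq2 (0.0471) and without ACGs replicate 3 (0.0103). FBXO42 rose by 0.23 in SCC25 (adjusted p = 0.0134), a call lost without DMSO replicate 2 (0.0582) and with equal totals (0.779). FBXO36 fell in SCC25 (log2 -0.31, adjusted p = 0.025), a call lost without ACGs replicates 2 or 3 or DMSO replicates 1 or 3 (0.0533 to 0.0844).

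FBXO11, FBXO16 and FBXO24 passed in neither line under the deposited scaling. FBXO11, a receptor for BCL6, had mean counts of 575.7 and 664.4 and log2 fold changes of 0.10 and 0.00 (adjusted p = 0.599 and 0.966), and FBXO16 and FBXO24 had low counts, at most 41.1 in any library. FBXO11 passed in SCC15 without ACGs replicate 3 (0.0433), and FBXO24 in SCC15 without ACGs replicate 3 (0.00382) and in SCC25 without ACGs replicate 2 (0.0485). With equal totals FBXO11 (-0.204, 0.0239) and FBXO16 (-0.616, 0.044) passed as lower in SCC25. ZNF395, which overlaps FBXO16 on the same strand, had a mean of 518.7 in SCC25 beside 28.8 for FBXO16. Its log2 fold change there was -0.95 under the deposited scaling.

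FBXL22, FBXO15, FBXO47, FBXW10 and FBXW12 were below the filter in both lines, and FBXL13 in SCC15. FBXW10 had counts of 11.1, 13.4 and 12.2 with DMSO and 3.48, 3.42 and 3.73 with ACGs in SCC15, where the treatments did not overlap, and at most 4.44 in SCC25. FBXL13 had 15.3, 14.4 and 11.5 with DMSO and 10.2, 5.20 and 4.44 with ACGs in SCC25 (log2 -1.02 ± 0.42, adjusted p = 0.0411). The FBXL13 call was lost by DESeq2 (0.0992) and without any one library but ACGs replicate 1 (0.066 to 0.127).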

How the data were processed

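Messenger RNA of both cell lines was sequenced, with 3 libraries per group. Per the study's methods the authors aligned reads with HISAT2 2.0.5, counted them per gene with featureCounts 1.5.0-p3 and scaled them with DESeq2. The deposited values are a normalized signal, each gene's read count over its library's size factor, set for each cell line separately, although 1 table's headers call them FPKM. Dividing by the step of the lowest values returned whole reads for 100% of values (tolerance 0.05). On these reads edgeR's quasi-likelihood test called 9880 of 15902 genes in SCC15 and 12804 of 16539 in SCC25, where limma called 9694 and 12702. The genes carry GRCh38 coordinates. The deposited columns of group means and of the authors' own fold changes and p-values were not used.

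Within a line, every gene whose 6 values averaged 10 or more was tested on log2(value + 1), pseudocount 1, with limma 3.58.1 in R 4.3.3 (trended empirical Bayes, two-sided), adjusted by Benjamini-Hochberg over all genes. The difference between lines was a contrast of the 4 group means. The test was tried first on simulated data. Alternatives were pseudocounts of 0.1 and 10, other filters, TMM, equal totals, edgeR 4.0.16, DESeq2 1.42.0, a replicate block, a fold limit and each library left out. Values in every library are given for FBXW7, FBXO8, the 2 largest rises and falls per class and line (adjusted p under 0.05, mean of at least 50, no overlap), the 4 largest differences between the lines, members described by role and some members not otherwise named. The members and lists were chosen with earlier results of these data known. A count under about 10 carries large counting error. The values of 1 member, which the counts of genes and class medians include, and of 1 leukocyte marker are not reported here.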

Additional observations from a re-analysis of the deposited data

Results flagged for a closer look

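The response to ACGs differed between SCC15 and SCC25 by limma's contrast (adjusted p under 0.05) for 33 of 54 F-box genes, beside 52.2% of all genes. The values are log2 differences, SCC15 minus SCC25. The response was higher in SCC15 for FBXO32 (4.06), FBXL16 (3.86), FBXO39 (2.53), FBXW9 (1.80), FBXW5 (1.30), FBXO6 (0.97), FBXO44 (0.83), FBXL15 (0.79), FBXL2 (0.73), FBXW8 (0.69), FBXO27 (0.68), FBXO7 (0.66), FBXO41 (0.61), FBXO36 (0.52), FBXW4 (0.52), FBXO22 (0.48) and FBXO17 (0.39). It was lower in SCC15 for 16 genes, of which 15 are given here, FBXO48 (-1.86), FBXO28 (-1.61), FBXO30 (-1.31), FBXO10 (-1.23), FBXO45 (-1.17), FBXO4 (-0.93), FBXO33 (-0.69), FBXO46 (-0.64), FBXL17 (-0.56), FBXL4 (-0.46), FBXW2 (-0.39), FBXO21 (-0.39), FBXO42 (-0.37), FBXW7 (-0.33) and FBXL5 (-0.27).

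Some of these differences were small beside their error. For FBXW7 the adjusted p was 0.0471, and it was between 0.0527 and 0.122 without SCC15 ACGs replicate 2, any SCC15 DMSO library, any SCC25 ACGs library, or SCC25 DMSO replicates 2 or 3. For FBXL15 it was 0.0298, and between 0.0509 and 0.0626 without SCC15 DMSO replicates 1 or 3, SCC25 ACGs replicates 2 or 3, or any SCC25 DMSO library. For FBXL5 it was 0.0538, 0.0512 and 0.0621 without SCC15 DMSO replicates 2 or 3 and SCC25 DMSO replicate 1, and for FBXO41 0.0518 without SCC25 DMSO replicate 1. For FBXO36 it was 0.0506 without SCC15 DMSO replicate 3, and for FBXO42 between 0.0512 and 0.0642 without SCC15 ACGs replicate 2, SCC15 DMSO replicate 3, SCC25 ACGs replicate 2 or SCC25 DMSO replicate 2. With equal totals the adjusted p was 0.0593 to 0.478 for FBXL2, FBXL15, FBXO7, FBXO17, FBXO22, FBXO36, FBXO41, FBXW4 and FBXW8.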

How the results depend on the processing

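Of 2861 comparisons of 165 results with an alternative, 2624 kept direction and side of the threshold or stayed close in value. With equal totals, 8 members were higher in SCC15 and 3 in both lines, the medians of FBXL, FBXO and FBXW genes were -0.714, -0.637 and -0.242 in SCC15 and -0.674, -0.14 and -0.107 in SCC25, and the sign turned for FBXL2 (-0.234), FBXL5 (-0.0077), FBXL6 (-0.184), FBXL12 (-0.15), FBXO3 (-0.283), FBXO5 (-0.21), FBXO11 (-0.398), FBXO16 (-0.0704), FBXO17 (-0.0184), FBXO36 (-0.278) and FBXW9 (-0.24) in SCC15 and for FBXL6 (-0.104), FBXL17 (-0.0802), FBXO6 (-0.0387), FBXO11 (-0.204), FBXO17 (-0.121), FBXO22 (-0.14), FBXW2 (-0.11), FBXW4 (-0.168), FBXW5 (-0.034) and FBXW11 (-0.068) in SCC25. These turns follow the shift of all genes under that scaling. With all genes above 0, the FBXL medians were -0.461 and -0.537, the FBXW median in SCC15 -0.103 and the FBXO median in SCC25 0.0036. FBXO11 in SCC25, near 0, also turned with DESeq2 (-0.00175), TMM (-0.0144) and edgeR (-0.013). The FBXL median in SCC15 was -0.287 with TMM and -0.283 with edgeR. With a mean of at least 50, fewer genes entered, and the medians in SCC25 were -0.0244 (FBXL) and 0.128 (FBXO). With an absolute log2 fold change above 1 asked for, 8 members were higher and 6 lower in SCC15, 2 higher and 10 lower in SCC25, 0 higher and 1 lower in both, 2 opposite, and 11 differed between the lines. The shares of all genes under that fold limit are not given here.

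Leaving out 1 library at a time gave FBXL medians in SCC25 of -0.563 to -0.329 (lowest without ACGs replicate 2, highest without ACGs replicate 1), FBXO medians in SCC15 of -0.178 to -0.0907 (highest without DMSO replicate 3 and next without ACGs replicate 2), FBXW medians of 0.0314 (without ACGs replicate 3) to 0.414 in SCC15 and 0.064 (without ACGs replicate 1) to 0.106 in SCC25, and single values of -0.154 to 0.834 for FBXO39 in SCC15 and -0.0828 to 0.0378 for FBXO48 in SCC25, neither of which passed. The sign also turned for FBXL4 (0.0549 without ACGs replicate 3), FBXO10 (0.0634 and 0.0512 without ACGs replicate 1 or DMSO replicate 2, range from -0.196) and FBXO11 (-0.05, -0.0209 and -0.00883 without ACGs replicates 1 or 3 or DMSO replicate 1, range up to 0.0818) in SCC25 and for FBXO11 in SCC15 (-0.0738 without ACGs replicate 1, range up to 0.221). FBXL12, FBXO38 and FBXO9 in SCC15 and FBXO21 in SCC25 also lost a call without at least 1 library (adjusted p up to 0.0572, 0.108, 0.0639 and 0.18). The cause was not tested.

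No label says that the replicate numbers pair the samples, and they were treated as unpaired. The correlation of same-numbered deviations ran from -0.0925 to 0.0415, and not every library correlated best with its own number. Deviations from means of 3 libraries cannot show whether same-numbered samples were handled together. With a replicate block, 15 members were higher and 20 lower in SCC15, 20 and 19 in SCC25, and 9 higher and 10 lower in both. The shares of all genes called with the block are not given here.

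Depth limits the low members: FBXL16 in SCC25, FBXO39 and FBXO43 rest on few reads per library.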
